A study of Mus musculus with 30 samples.

Results

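The peroxisome proliferator-activated receptors (PPAR), the PGC-1 coactivators and the oestrogen-related receptors (ERR) were followed as one regulatory circuit of 10 genes, chosen by name out of the 55487 gene identifiers in the count table. They were the receptors Ppara, Ppard and Pparg, their dimer partner Rxra, the coactivators Ppargc1a (PGC-1alpha) and Ppargc1b (PGC-1beta), the receptors Esrra, Esrrb and Esrrg, and Tfam. RNA was sequenced from 30 mouse hearts, each collected at 8 weeks from sham surgery or from transverse aortic constriction (TAC), in which a clip narrows the aorta and loads the left ventricle. In the floxed cohort, mice with the CPT1a floxed genotype after sham (FF_sham) or TAC (FF_TAC) stood beside mice labelled as cardiac specific knockouts of CPT1a after sham (KO_sham) or TAC (KO_TAC), with 4 hearts in each group. In the AAV9 cohort, C57Bl/6 mice received saline (PBS) before sham or TAC (PBS_sham and PBS_TAC, 3 hearts each) or the viral vector AAV9.Cpt1a (AAV_sham and AAV_TAC, 4 hearts each), which the series text places behind a cTNT promoter, named for a troponin of cardiac muscle. The series text speaks of a knockdown where the labels say knockout, the driver of the deletion is not given in the sources used here, and clips of 0.016 or 0.018 inch are not assigned to mice. The saline controls carried no vector, so the vector and its Cpt1a cargo cannot be told apart. Ages, sexes and pooling of animals are not given in the labels, and p-values measure the spread between these hearts.

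PPARs are nuclear receptors that bind fatty acids and their derivatives, pair with a retinoid X receptor such as the product of Rxra, and switch on genes of fatty acid uptake and oxidation. In heart muscle PPARalpha is the classical member of this kind. ERRs bind as orphan receptors to genes of the citric acid cycle, the respiratory chain and fatty acid oxidation, and PGC-1 proteins dock on both receptor families and raise their output. Tfam packages mitochondrial DNA and starts its transcription, at the end of the same chain of command. Cpt1a, which the study deleted or added, encodes an enzyme that commits long-chain fatty acids to the mitochondrion.

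All 10 genes passed the filter on low counts in both cohorts. Levels are counts relative to library size (CPM) with sizes scaled by the TMM method, and differences are log2 fold changes with standard errors (SE) from edgeR's quasi-likelihood test. A gene was called at an adjusted p under 0.05 over all genes tested. Per kilobase of exon, over the 30 libraries, Esrra was the most abundant at 37.8 CPM per kb. Rxra followed at 11.9, Ppargc1a at 9.54 and Tfam at 8.98, then Esrrg at 5.94, Esrrb at 4.91, Ppargc1b at 4.88, Ppard at 4.52, Pparg at 3.89 and Ppara at 3.12 CPM per kb. The least abundant gene was also the one whose level varied most: the SD of Ppara over the libraries was 0.55 on the log2 scale, against 0.17 for Esrra. In GENCODE release 21 for build GRCm38, 4 of the genes lie on the plus strand at chr15:85734983-85802819 (Ppara), chr2:27676440-27762957 (Rxra), chr1:187608791-188214885 (Esrrg) and chr12:86361117-86521628 (Esrrb). Ppard (chr17:28232700-28301474) and Pparg (chr6:115360951-115490399) are also on the plus strand. Ppargc1a (chr5:51454250-51567726), Esrra (chr19:6910977-6921813) and Tfam (chr10:71225464-71238280) are on the minus strand. Counts are given per gene, so that isoforms cannot be told apart.

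Several libraries stood apart before any comparison was made. Cpt1a, which checks the labels, was at 38.6 to 53.4 CPM in FF_sham and at 19.7, 11.9, 14.3 and 11.3 CPM in KO_TAC. It was at 23.1, 46.8, 20.8 and 23.8 CPM in KO_sham and at 49.9, 20.96, 16.7 and 34.9 CPM in FF_TAC, so that the library labelled KO_sham 2 and the libraries labelled FF_TAC 2 and FF_TAC 3 went against their labels. Those 3 libraries and all 4 of KO_TAC had summed haemoglobin transcripts of 1.4 to 51.1 CPM, against 294 to 943 CPM in the other 23, and the highest early response genes (Fos, Egr1 and the like), with a mean log2 level of 6.80 to 8.35 against 2.42 to 5.45. They are called haemoglobin-low, a property that all KO_TAC libraries share. In the AAV9 cohort, Cpt1a was at 36.7, 48.9 and 69.95 CPM in PBS_sham and at 85.8, 54.8, 72.2 and 66.1 CPM in AAV_sham, which overlap (log2 difference 0.45, SE 0.216, adjusted p = 0.248). It was at 55.7, 59.0 and 39.5 CPM in PBS_TAC and at 51.1, 61.5, 58.0 and 43.8 CPM in AAV_TAC, which overlap. With a log2 difference of 0.05 (SE 0.214, edgeR adjusted p = 1), total Cpt1a transcripts did not set AAV_TAC apart from PBS_TAC. After sham the overlap came from PBS_sham 3 alone. The other PBS_sham hearts, at 36.7 and 48.9 CPM, lay below every AAV_sham heart. In that cohort, too, the library labelled PBS_sham 3 had a summed level of 4 smooth muscle markers of 2491 CPM, against at most 388 CPM in the others, the highest endothelial sum (2078 CPM) and the lowest sum of 6 cardiomyocyte markers (30850 CPM). Cardiomyocyte markers were thus abundant in every library, as the label of heart tissue requires.

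The 4 genes that were called in any comparison were Ppara, Rxra, Esrrg and Esrrb, and all 4 were low in KO_TAC. Sequence just upstream of RefSeq starts (build GRCm38.p6) is shown because these genes shared low levels in KO_TAC, where they were called. In other comparisons they did not all move the same way. RefSeq windows were matched for 9 of the 10 members, 16 windows in all, and the 250 bases before each start were searched on both strands. The first stretch, at chr15:85735735-85735764, holds in capitals a match of Ppara to the NRF1 palindrome, which 0.782% of all 32851 windows contain.
Ppara: gggctcggtgGCGCATGCGCgcggactagg
The second, at chr1:187608974-187609003, holds in capitals a match of Esrrg to a MEF2 element, found in 0.14% of windows.
Esrrg: taaaactttgCTATTTATAGtctacgcccg
The third, at chr2:27709193-27709261 before an internal start of Rxra, holds 2 nuclear receptor half-sites AGGTCA in capitals, the first of them on the reverse strand; 14% of windows have at least 1.
Rxra: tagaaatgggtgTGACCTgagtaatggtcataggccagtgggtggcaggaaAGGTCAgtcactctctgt
All 3 stretches are on the plus strand and touch no exon of GENCODE release 21 for the mouse. All 3 lie within the bounds of their genes given above, downstream of the first annotated start. The half-site was also found in 2 windows of Pparg. The ERR response element TNAAGGTCA (1.14% of windows), the direct repeat of PPAR and RXR, made of AGGTCA, any base and AGGTCA again (0.0335%), and the cyclic AMP element TGACGTCA (1.55%) were in none of the 16 windows, and Esrrb had no match to any of the 6 motifs. The half-site lies within both longer receptor motifs. These are matches of letters in short windows, and no binding was measured.

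Ppara, the fatty acid sensor of the circuit, moved furthest. Its transcripts were at 5.55, 6.49, 5.93 and 3.61 CPM in the 4 KO_TAC hearts. They were at 10.8, 16.1, 14.2 and 13.4 CPM in KO_sham and at 17.7, 11.9, 8.27 and 13.4 CPM in FF_TAC. No KO_TAC heart reached the lowest heart of either group. Against KO_sham, Ppara fell by 1.33 on the log2 scale (SE 0.225, edgeR adjusted p = 0.00203), to 0.399 of its level. Against FF_TAC it fell by 1.23 (SE 0.225, adjusted p = 0.00297). In FF_sham the gene was at 8.04, 10.8, 8.83 and 10.4 CPM, so that the floxed hearts after TAC reached higher single values (log2 difference 0.41, SE 0.219, adjusted p = 0.488) with overlapping groups. The 2 haemoglobin-low FF_TAC hearts were at 11.9 and 8.27 CPM and the other 2 at 17.7 and 13.4 CPM. The library labelled KO_sham 2, also haemoglobin-low, was the highest of its group. The effect of TAC in knockouts minus that in floxed hearts was -1.74 (SE 0.313, unadjusted p = 5.15e-05, adjusted p = 0.0647), which missed the threshold. It passed in DESeq2, in voom, without the filter, with an atrial covariate and with all 30 libraries in one fit, at adjusted p from 0.000163 to 0.0333. With a haemoglobin term it was -1.68 (adjusted p = 0.0657), and with 1 library left out it ran from -1.904 to -1.54 (adjusted p from 0.0309 to 0.157).

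In that interaction 0 of 10 members and 0.0449% of all genes were called, with 2 members (Ppara and Esrrg) and 13.1% of all genes at an unadjusted p under 0.05. The comparison of KO_TAC with KO_sham called 25.8% of all genes tested, 14.3% as higher and 11.5% as lower. Of the 10 members, 3 were called, all lower: Ppara, Rxra and Esrrg. In KO_TAC against FF_TAC, 14.3% of all genes were called, 7.53% as higher and 6.8% as lower, and 4 of 10 members were called lower, Esrrb being the fourth. For the same 3 and 4 members, KO_TAC lay below the other group without overlap, as did 12.5% and 7.53% of all genes. The median log2 fold change of the 10 members was -0.21 against KO_sham and -0.24 against FF_TAC, beside medians of 0.02 and 0.04 over all genes. Both comparisons share the KO_TAC hearts.

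**Figure D1:**
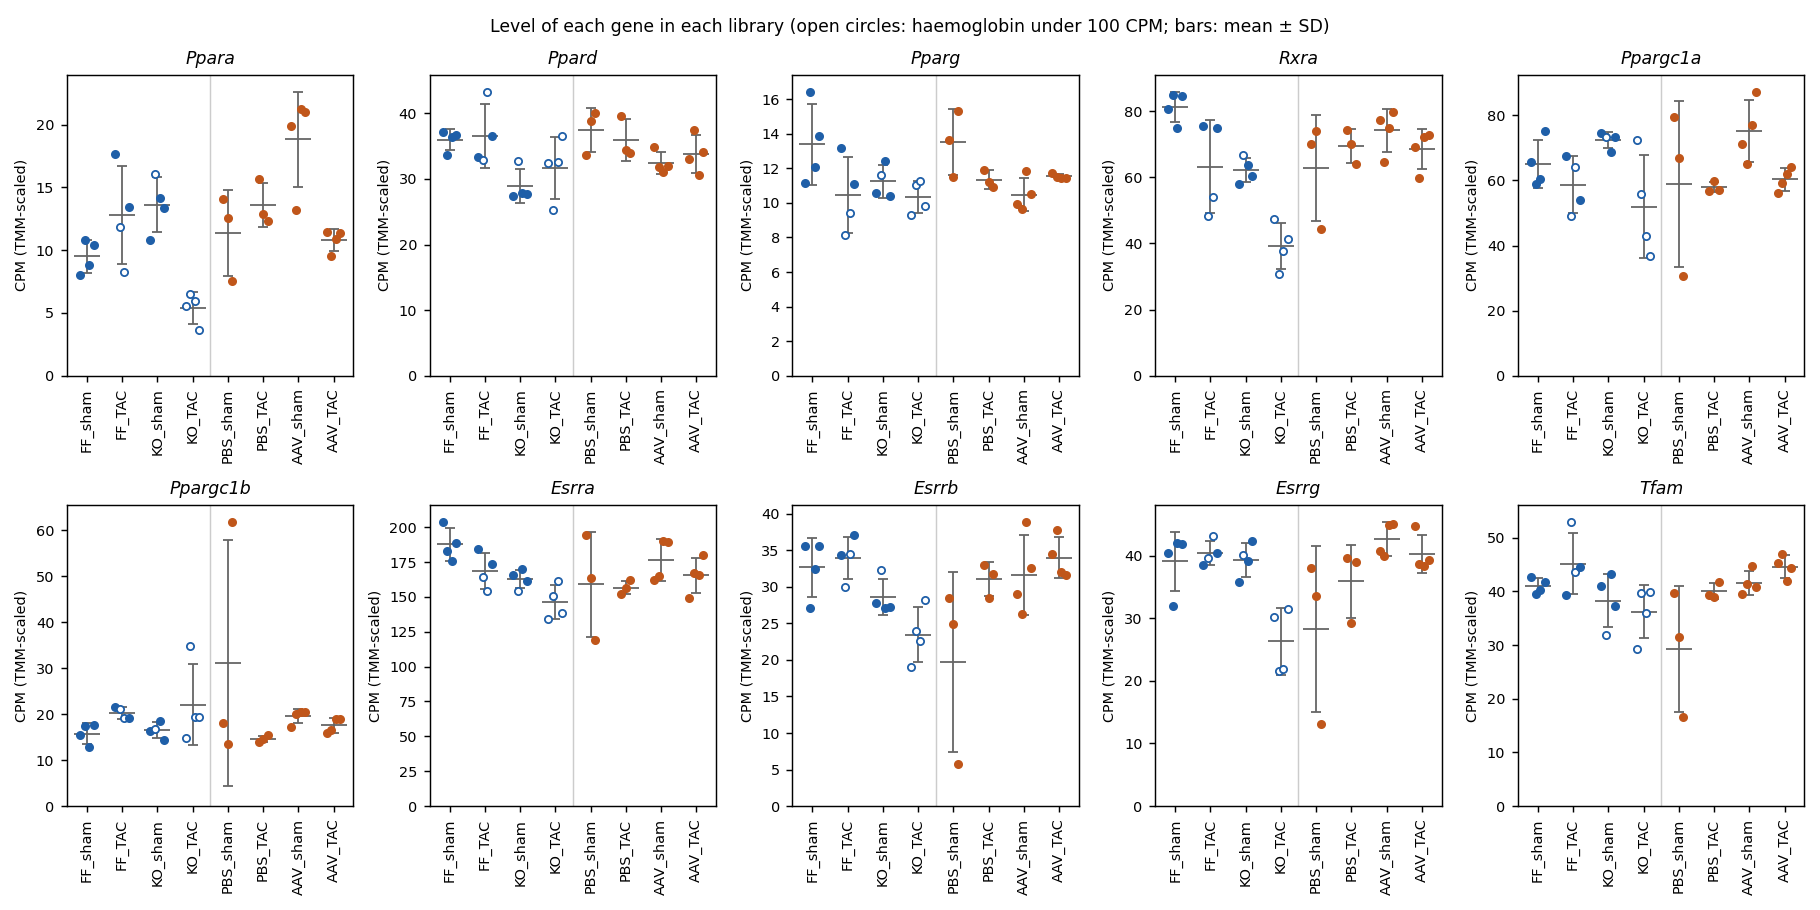
Levels of the 10 genes in CPM scaled by TMM (vertical axes, from 0) in each of the 30 libraries by group (horizontal axes), with group means and SD as bars and haemoglobin-low libraries as open circles. Ppara in KO_TAC lies at 3.61 to 6.49 CPM, below every other library of its cohort, and PBS_sham 3 is the lowest or highest library of its cohort for several genes, such as Ppargc1b at 61.9 CPM.

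Rxra encodes one of the retinoid X receptors with which PPARs pair to bind DNA. It was at 47.4, 30.8, 37.5 and 41.3 CPM in KO_TAC, at 58.0, 66.7, 63.6 and 60.5 CPM in KO_sham and at 75.4, 48.3, 54.0 and 74.9 CPM in FF_TAC. The FF_TAC group was split, with its 2 haemoglobin-low hearts at 48.3 and 54.0 CPM, while the library labelled KO_sham 2, also haemoglobin-low, was the highest of its group. Rxra fell by 0.65 against KO_sham (SE 0.15, edgeR adjusted p = 0.00839) and by 0.66 against FF_TAC (SE 0.15, adjusted p = 0.00984). FF_sham held the highest levels, 80.7, 84.9, 75.0 and 84.5 CPM, all above KO_sham. That difference of KO_sham from FF_sham (-0.39, SE 0.149, adjusted p = 0.907) did not pass, nor did FF_TAC against FF_sham (-0.38, SE 0.15, adjusted p = 0.395).

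The other PPARs did not follow Ppara. Ppard, the widely expressed family member, was at 32.4, 25.2, 32.6 and 36.6 CPM in KO_TAC and at 27.5, 32.7, 27.8 and 27.6 CPM in KO_sham, a log2 difference of 0.14 (SE 0.116, adjusted p = 0.367). Pparg, the adipocyte receptor, was at 9.27, 11.03, 11.2 and 9.82 CPM in KO_TAC and at 10.6, 11.6, 12.4 and 10.4 CPM in KO_sham, a difference of -0.11 (SE 0.155, adjusted p = 0.61). Floxed controls held Ppard at 37.1, 33.7, 36.5 and 36.7 CPM after sham and at 33.3, 32.9, 43.3 and 36.6 CPM after TAC. Pparg in the same hearts was at 11.2, 16.4, 12.1 and 13.9 CPM and at 13.2, 8.15, 9.41 and 11.1 CPM, its lowest values being in the libraries labelled FF_TAC 2 and FF_TAC 3. Against FF_TAC the differences of KO_TAC were -0.18 (SE 0.115) for Ppard and 0.00 (SE 0.156) for Pparg, adjusted p = 0.302 and 0.993. The highest Pparg level among floxed hearts, 16.4 CPM, was in FF_sham 2, which also had the highest summed white and brown adipocyte markers of that cohort, 189.9 and 194.1 CPM; their part in the Pparg level was not tested. Per kilobase, Ppara made up 31.6% ± 2.41 (SD, n = 4) of the transcripts of the PPAR family in KO_sham, 28.2% ± 6.24 in FF_TAC and 15.5% ± 3.74 in KO_TAC. The KO_TAC hearts, at 16.3, 19.3, 16.0 and 10.3%, lay below all other hearts of the cohort. FF_TAC 3 and FF_sham 1, each at 19.4%, were close to the highest KO_TAC heart.

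Esrrg and Esrrb, which add to the output of Esrra in muscle with high oxidative demand, were both low in KO_TAC. Esrrg was at 30.3, 21.5, 21.97 and 31.6 CPM there, at 35.8, 40.2, 39.2 and 42.3 CPM in KO_sham and at 38.6, 39.7, 43.1 and 40.5 CPM in FF_TAC. It fell by 0.57 against KO_sham (SE 0.129, edgeR adjusted p = 0.0078) and by 0.59 against FF_TAC (SE 0.129, adjusted p = 0.00795). Its FF_TAC and FF_sham hearts overlapped, with a difference of 0.03 (SE 0.128, adjusted p = 0.926). The interaction of genotype and TAC was -0.60 (SE 0.182, adjusted p = 0.172). Esrrb was at 19.0, 23.9, 22.6 and 28.2 CPM in KO_TAC and at 34.4, 30.1, 34.5 and 37.1 CPM in FF_TAC, with no overlap. It fell by 0.51 against FF_TAC (SE 0.123, adjusted p = 0.0132). KO_sham was at 27.8, 32.3, 27.1 and 27.3 CPM, and its difference from KO_TAC was -0.28 (SE 0.123, adjusted p = 0.104), with 1 KO_TAC heart inside its range. FF_sham, at 35.6, 27.1, 32.5 and 35.6 CPM, overlapped FF_TAC (0.04, SE 0.123, adjusted p = 0.904). The Esrrb call was lost when all 30 libraries were fitted together (-0.54, adjusted p = 0.155).

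Esrra, the dominant ERR of heart muscle, held 80.3% ± 3.16 of ERR transcripts per kilobase in KO_TAC and 77.0% ± 1.68 in KO_sham (SD, n = 4). It was at 134, 150, 161 and 139 CPM in KO_TAC and at 166, 154, 170 and 161 CPM in KO_sham, which overlap. FF_TAC hearts, at 184, 164, 154 and 173 CPM, overlapped both and FF_sham (-0.17, SE 0.0887, adjusted p = 0.488). The log2 difference was -0.15 (SE 0.0887, adjusted p = 0.227), and against FF_TAC it was -0.18 (SE 0.0887, adjusted p = 0.17). The exons of Esrra overlap those of Trmt112 on the other strand over 73 of 4387 bases and contain Mir6990 (91 bases). How the counting treated strand is not given in the sources used here, so the levels of Esrra are uncertain to that extent. The other 9 members overlap no exon of another gene.

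The coactivators went different ways within KO_TAC without a call. Ppargc1a, which is induced by energy demand, was at 72.4, 55.9, 43.0 and 36.7 CPM in KO_TAC and at 74.5, 73.5, 68.8 and 73.4 CPM in KO_sham. Replicate 1 stayed within the KO_sham range and the other 3 lay below it; the difference was -0.47 (SE 0.172, edgeR adjusted p = 0.0562). DESeq2 (-0.46, adjusted p = 0.0385), voom (-0.67, adjusted p = 0.00033) and the fit without KO_TAC replicate 1 (-0.68, adjusted p = 0.00301) called it. That library, KO_TAC 1, had the highest sum of 4 atrial markers, 9567 CPM. The highest sums of the other groups ran from 205 CPM (FF_TAC) to 3356 CPM (PBS_sham). In floxed controls Ppargc1a was at 65.5, 59.1, 60.5 and 75.1 CPM after sham and at 67.6, 49.0, 64.3 and 53.9 CPM after TAC, which overlap (-0.16, SE 0.172, adjusted p = 0.716). KO_TAC against FF_TAC was at -0.15 (SE 0.172, adjusted p = 0.579).

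Ppargc1b, the second coactivator, was at 14.7, 34.9, 19.4 and 19.3 CPM in KO_TAC and at 16.3, 16.9, 18.5 and 14.3 CPM in KO_sham. Its difference of 0.43 (SE 0.201, edgeR adjusted p = 0.122) rested on KO_TAC replicate 2, without which it was 0.12. Without KO_TAC replicate 1, the lowest heart of that group, it passed the threshold. In FF_TAC it was at 21.5, 21.1, 19.1 and 19.2 CPM, above all FF_sham hearts at 15.4, 17.4, 12.8 and 17.6 CPM, a difference of 0.34 (SE 0.201, adjusted p = 0.534). It was the only member whose groups lay apart in FF_TAC against FF_sham, where 3.24% of all genes were higher without overlap. Per kilobase, Ppargc1a made up 74.8, 49.2, 57.3 and 53.5% of PGC-1 transcripts in KO_TAC and 69.3 to 75.6% in KO_sham.

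Tfam, which carries the programme to mitochondrial DNA, was at 29.3, 39.7, 35.9 and 39.9 CPM in KO_TAC and at 40.9, 31.8, 43.3 and 37.2 CPM in KO_sham. The groups overlapped, and the difference was -0.07 (SE 0.117, adjusted p = 0.673). Against FF_TAC, at 39.4, 52.9, 43.5 and 44.6 CPM, it was -0.29 (SE 0.117, adjusted p = 0.104), the highest heart being the library labelled FF_TAC 2. FF_sham hearts lay within 39.5 to 42.7 CPM (FF_TAC minus FF_sham 0.12, SE 0.117, adjusted p = 0.7).

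**Figure D2:**
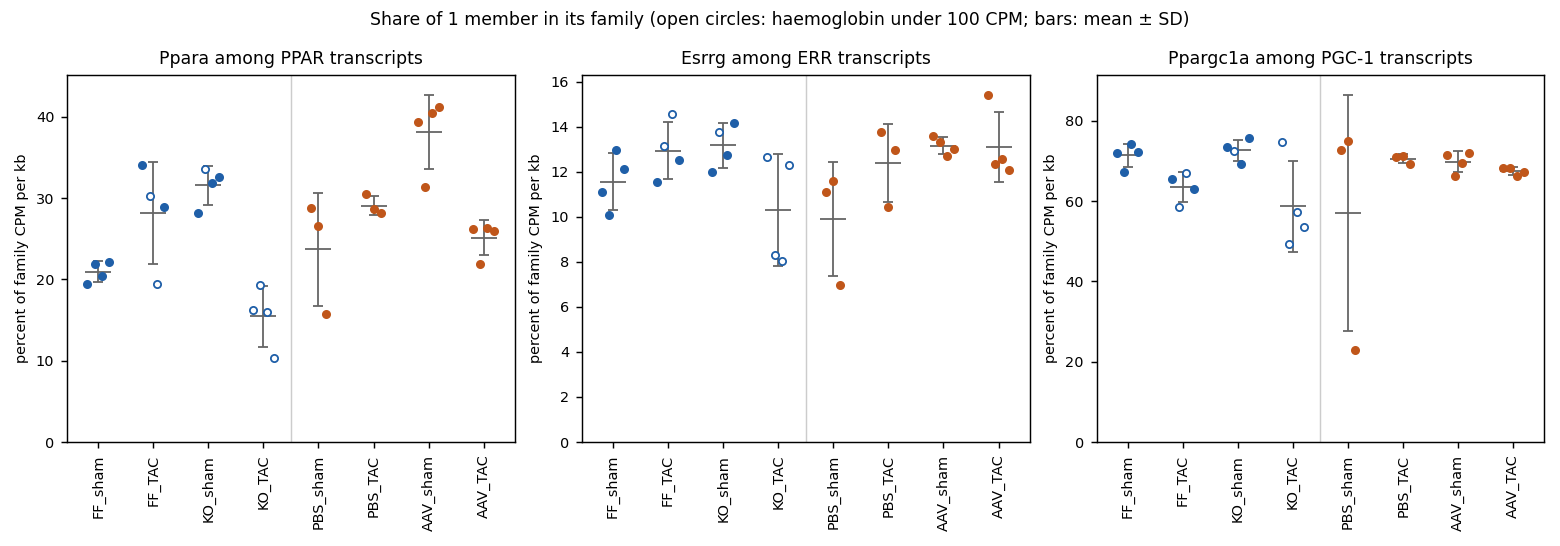
Percent of the summed CPM per kilobase of a family (vertical axes) held by Ppara, Esrrg or Ppargc1a in each library, by group, with means and SD as bars and haemoglobin-low libraries as open circles. Ppara holds 10.3 to 19.3% in KO_TAC and 31.4 to 41.2% in AAV_sham; PBS_sham 3 is lowest for Ppargc1a at 23.0%.

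Because every KO_TAC library was haemoglobin-low, the calls were repeated with a term for that property, which the other groups' 3 haemoglobin-low libraries make possible. Those 3 are the libraries whose Cpt1a went against their labels, so haemoglobin and a doubtful genotype label cannot be told apart in these fits. Ppara was still called against KO_sham (-1.19, SE 0.267, edgeR adjusted p = 0.04) and against FF_TAC (-1.11, SE 0.255, adjusted p = 0.0188). Esrrg and Esrrb were still called against FF_TAC (-0.62 and -0.52, adjusted p = 0.0224 and 0.0412). Rxra was no longer called in either comparison (-0.47 and -0.52, adjusted p = 0.157 and 0.0651), nor was Esrrg against KO_sham (-0.61, adjusted p = 0.0746). The term also cut the number of genes called overall from 4031 to 273 against KO_sham and from 2235 to 1127 against FF_TAC. Among haemoglobin-low hearts alone, 4 KO_TAC against the libraries labelled FF_TAC 2 and FF_TAC 3, whose Cpt1a (20.96 and 16.7 CPM) was near the range of KO_TAC, 0 of 15311 genes passed the threshold, while 1620 reached an unadjusted p under 0.05. The differences there were -0.90 for Ppara (SE 0.288), -0.65 for Esrrg (SE 0.207), -0.46 for Esrrb (SE 0.185) and -0.38 for Rxra (SE 0.198), at unadjusted p = 0.0154, 0.0152, 0.0406 and 0.0954. Without the library labelled KO_sham 2, Ppara in KO_TAC against KO_sham was at -1.25 (SE 0.238, adjusted p = 0.0057).

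Some markers of other cell types were called in KO_TAC against KO_sham and FF_TAC, where 25.8% and 14.3% of all genes were called. No smooth muscle, white adipocyte or atrial marker tested was called in either comparison. Of 5 endothelial markers, 4 were called lower in KO_TAC against KO_sham, and their sum ran from 435 to 733 CPM in KO_TAC and from 705 to 875 CPM in KO_sham. Of 5 fibroblast markers, 2 were called higher and 1 had a negative difference, with sums of 1245 to 1527 CPM against 680 to 971 CPM. Of 6 cardiomyocyte markers, 2 were called lower and 1 higher, with sums of 36150 to 46700 CPM against 44540 to 50240 CPM. Of 5 macrophage markers 1 was called lower (sums of 223 to 335 CPM against 211 to 480 CPM), and 1 of 2 brown adipocyte markers tested was called higher (sums of 27.1 to 96.9 CPM against 25.2 to 35.4 CPM). Against FF_TAC, 3 endothelial markers were called lower (sums of 612 to 962 CPM in FF_TAC), 2 fibroblast markers higher (707 to 843 CPM) and 2 cardiomyocyte markers lower (41370 to 49220 CPM). There, 2 macrophage markers (154 to 185 CPM) and 1 brown adipocyte marker (29.0 to 43.8 CPM) were called higher. Mitochondrially encoded transcripts made up 14.7% ± 3.11 of counts in KO_TAC and 23.1% ± 1.18 in KO_sham (SD, n = 4). The part of these shifts in the levels of Ppara, Rxra, Esrrg and Esrrb was not tested. In these bulk samples, fewer cells of a type and less RNA per cell cannot be told apart.

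**Figure D3:**
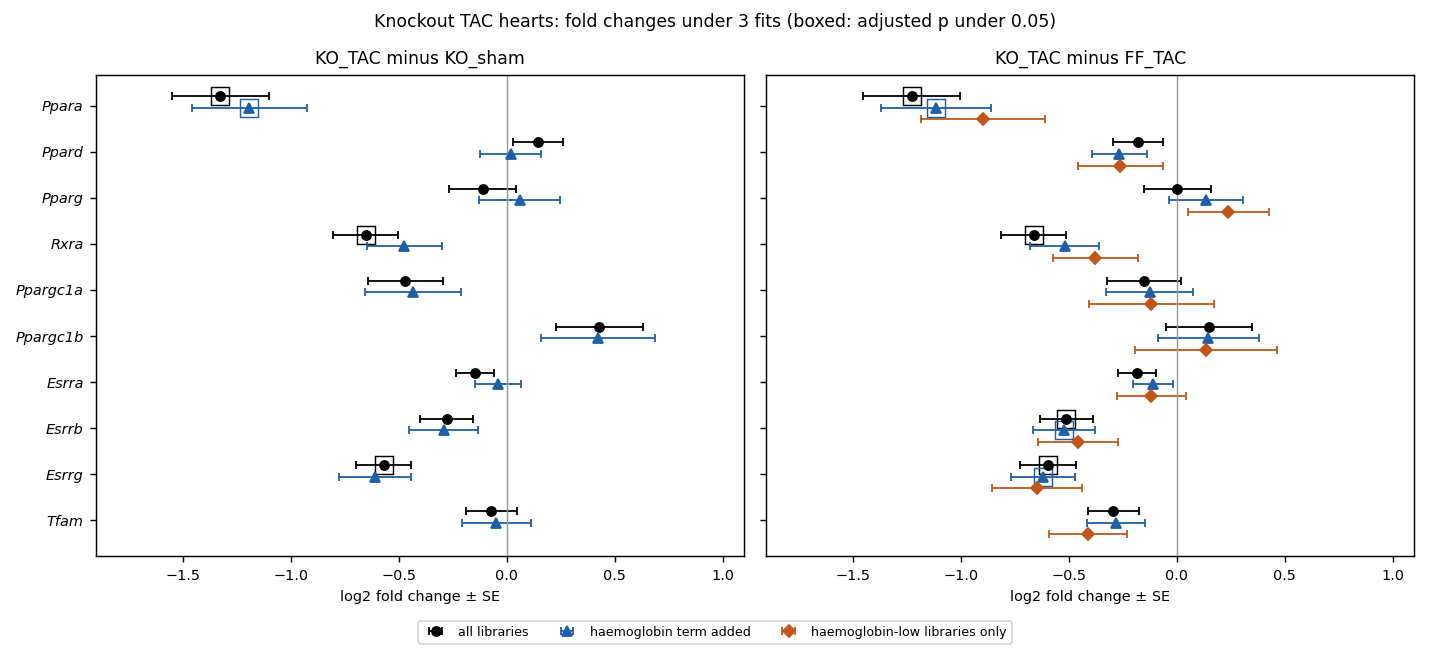
Log2 fold change with SE (horizontal axes) of the 10 genes in KO_TAC against KO_sham and against FF_TAC, from the fit of all libraries of the cohort, the fit with a haemoglobin term, and haemoglobin-low libraries alone, with boxes around values with an adjusted p under 0.05. Ppara is boxed at -1.33 and -1.19 on the left, and Rxra is boxed in the fit without the term only.

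TAC in floxed controls called none of the 10 genes and 0% of all genes by edgeR, with 2 members and 11.1% of all genes at an unadjusted p under 0.05. Those 2 were Pparg (-0.37, SE 0.155, adjusted p = 0.417) and Rxra. Knockout without TAC likewise called 0 of 10 and 0% of all genes, with 4 members and 5.22% of all genes at an unadjusted p under 0.05. For the same 4 members the groups lay apart, which held for 6.59% of all genes: Ppara was higher in KO_sham, and Ppard, Rxra and Esrra were lower. Ppara was at 10.84 to 16.11 CPM against 8.04 to 10.83 CPM in FF_sham, so the gap between the groups was narrow (0.51, SE 0.218, adjusted p = 0.944). Ppard was at 27.5 to 32.7 CPM against 33.7 to 37.1 CPM (-0.32, SE 0.116, adjusted p = 0.9). Esrra was at 154 to 170 CPM against 176 to 204 CPM (-0.21, SE 0.0887, adjusted p = 0.944). The other 6 members differed by -0.25 (Pparg) to 0.15 (Ppargc1a), each with an adjusted p of 1. With haemoglobin-high libraries alone, KO_sham minus FF_sham was -0.42 for Rxra (SE 0.0669, adjusted p = 0.107) and FF_TAC minus FF_sham was 0.70 for Ppara (SE 0.165, adjusted p = 0.543).

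Ppara was also the member with the largest difference between the vector groups after TAC and after sham, groups that Cpt1a itself did not separate (AAV_TAC minus AAV_sham -0.38, SE 0.198, adjusted p = 0.765). It was at 19.9, 13.2, 21.3 and 20.98 CPM in AAV_sham, at 11.4, 9.55, 10.9 and 11.4 CPM in AAV_TAC, at 14.1, 12.6 and 7.55 CPM in PBS_sham and at 15.6, 12.9 and 12.3 CPM in PBS_TAC. AAV_sham was the group with the highest mean, and every AAV_TAC heart lay below every AAV_sham heart. The difference of AAV_TAC from AAV_sham was -0.80 (SE 0.198, unadjusted p = 0.00125, edgeR adjusted p = 0.245), and 0 of 10 members and 0.00635% of all genes were called (1 member and 7.05% of genes at an unadjusted p under 0.05). In DESeq2 it was called (-0.80, adjusted p = 0.0376), as in voom (-0.78, adjusted p = 0.0128) and in edgeR without PBS_sham 3 (-0.80, adjusted p = 0.0292), a library outside this contrast that adds to the shared estimate of the spread. The share of Ppara in PPAR transcripts per kilobase was 38.1% ± 4.54 in AAV_sham and 25.1% ± 2.16 in AAV_TAC (SD, n = 4). No AAV9 library was haemoglobin-low.

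Ppargc1a was the other member whose AAV_TAC hearts, at 56.1, 59.1, 62.1 and 64.1 CPM, all lay below AAV_sham, at 71.3, 65.1, 77.1 and 87.3 CPM (-0.32, SE 0.222, adjusted p = 0.869). AAV_TAC lay below AAV_sham without overlap for these 2 members and for 5.79% of all genes. The remaining 8 members had log2 differences between -0.15 (Ppargc1b) and 0.14 (Pparg), with adjusted p from 0.878 to 0.996. Among them, Rxra was at 77.2, 64.7, 74.9 and 79.7 CPM in AAV_sham and at 69.2, 59.6, 72.1 and 72.7 CPM in AAV_TAC. Esrrg was at 40.8, 39.9, 45.0 and 45.1 CPM and at 44.8, 38.8, 38.4 and 39.4 CPM, and Esrrb at 29.0, 26.2, 38.9 and 32.6 CPM and at 34.6, 37.8, 32.0 and 31.6 CPM. The receptors low in KO_TAC other than Ppara thus overlapped between the vector groups. Tfam was at 39.5 to 44.7 CPM in AAV_sham and 41.9 to 46.9 CPM in AAV_TAC, Esrra at 162 to 190 and 149 to 180 CPM, and Ppargc1b at 17.2 to 20.6 and 15.8 to 19.1 CPM. Ppard was at 31.1 to 34.8 and 30.5 to 37.5 CPM, and Pparg at 9.66 to 11.8 and 11.4 to 11.7 CPM.

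In AAV_sham against PBS_sham, Ppara was at 0.74 (SE 0.215, edgeR adjusted p = 0.148). Of the 10 members 0 were called, as were 0.0127% of all genes, and 4 members had an unadjusted p under 0.05 (Ppara, Pparg, Esrrg and Tfam), as did 20.7% of all genes. Esrrg alone was higher without overlap, as were 5.38% of all genes. These values leaned on PBS_sham 3, the library with high smooth muscle markers. In that library Ppargc1b was at 61.9 CPM, against 18.0 and 13.4 CPM in the other two hearts of its group. Esrrb was at 5.70 CPM against 28.5 and 25.0 CPM, and Esrrg at 13.1 CPM against 38.0 and 33.6 CPM. Tfam was at 16.7 CPM against 39.7 and 31.5 CPM, and Ppargc1a at 30.6 CPM against 79.5 and 66.8 CPM. Rxra was at 44.3 CPM against 69.9 and 74.1 CPM, and Esrra at 119 CPM against 194 and 163 CPM. The library was thus low for 6 members and for Ppara, and high for Ppargc1b. Ppard, at 40.0 CPM, and Pparg, at 15.3 CPM, were also at the top of their group. PBS_sham 2 and 3 had summed white adipocyte markers of 463.0 and 302.1 CPM; the part of smooth muscle, endothelial and adipocyte markers in these levels was not tested.

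Without PBS_sham 3 the difference of AAV_sham from PBS_sham was 0.49 for Ppara (SE 0.168, adjusted p = 0.304), 0.24 for Esrrg (SE 0.112), 0.23 for Esrrb (SE 0.129) and 0.21 for Tfam (SE 0.0854). With it, Esrrg, Esrrb and Tfam were at 0.60, 0.69 and 0.51. Ppargc1b changed sign, from -0.63 (SE 0.35) to 0.30 (SE 0.122), and none of these was called either way. In PBS_TAC against PBS_sham, Ppargc1b was at -1.04 (SE 0.383, adjusted p = 0.201) with that library and at -0.10 (SE 0.128, adjusted p = 0.783) without it. Ppargc1a was at -0.01 (SE 0.256) with it and at -0.33 (SE 0.112, adjusted p = 0.206) without it. Esrrb went from 0.67 to 0.22, Tfam from 0.47 to 0.17, Esrrg from 0.36 to 0.01 and Ppara from 0.28 to 0.03. PBS_TAC hearts themselves were close to each other for Ppargc1a, at 56.9, 59.8 and 57.1 CPM, and for Ppargc1b, at 13.98, 14.6 and 15.4 CPM. Rxra was at 74.1, 70.0 and 64.1 CPM, Esrra at 152, 157 and 162 CPM, and Tfam at 39.4, 39.0 and 41.8 CPM. Esrrb was at 33.0, 28.5 and 31.8 CPM, Esrrg at 39.7, 29.2 and 39.0 CPM, Ppard at 39.5, 34.4 and 33.9 CPM and Pparg at 11.9, 11.2 and 10.9 CPM.

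TAC in saline-treated mice called 0 of 10 members and 0.0318% of all genes, with 1 member (Ppargc1b) and 18.5% of all genes at an unadjusted p under 0.05. Esrrb alone was higher there without overlap (0.67, SE 0.389, adjusted p = 0.35), as were 7.28% of all genes. AAV_TAC against PBS_TAC called 0 of 10 and 0.0381% of all genes. There the groups lay apart for Ppara (lower, -0.34, SE 0.213), Ppargc1b (higher, 0.26, SE 0.36) and Tfam (higher, 0.15, SE 0.21), each with an adjusted p of 1, against 8.33% of all genes. The other 7 members differed by -0.10 (Ppard) to 0.16 (Esrrg). No member reached an unadjusted p under 0.05 in it, as 3.19% of all genes did. The effect of TAC with the vector minus that without it was -1.08 for Ppara (SE 0.302, unadjusted p = 0.00313, adjusted p = 0.688). Of the 10 members 0 were called in it, beside 0.00635% of all genes, and 2 members (Ppara and Pparg) and 6.95% of all genes had an unadjusted p under 0.05. Without PBS_sham 3 that value was -0.83 (SE 0.223, adjusted p = 0.423).

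**Figure D4:**
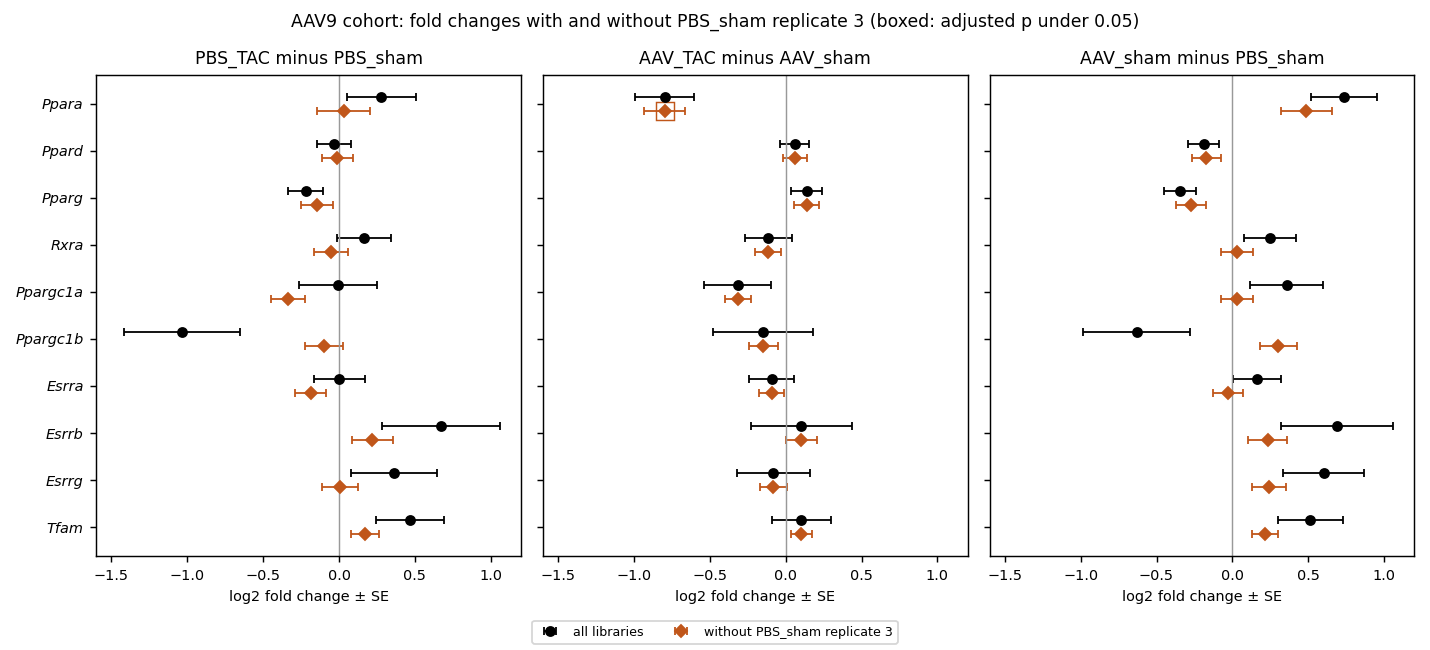
Log2 fold change with SE (horizontal axes) of the 10 genes in 3 comparisons of the AAV9 cohort, from all libraries and without PBS_sham replicate 3, with boxes around values with an adjusted p under 0.05. Leaving out the library moves Ppargc1b from -1.04 to -0.10 in PBS_TAC against PBS_sham, and boxes Ppara at -0.80 in AAV_TAC against AAV_sham.

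Ordered by group mean, Ppara ran from AAV_sham (18.8 CPM) through KO_sham, PBS_TAC, FF_TAC, PBS_sham, AAV_TAC and FF_sham to KO_TAC (5.40 CPM), a ratio of 3.49 between the ends. Of the 7 pairs of neighbours in this order only the last, FF_sham and KO_TAC, did not overlap. For Rxra the range was 2.07-fold and again 1 pair of neighbours, KO_sham above KO_TAC at the low end, was free of overlap. For the other 8 members no neighbouring groups were free of overlap, and the ends differed by 1.28-fold (Esrra) to 2.12-fold (Ppargc1b). The high end for Ppargc1b was PBS_sham, where PBS_sham 3 was at 61.9 CPM against 18.0 and 13.4 CPM. PBS_sham was also the low end for Esrrb and Tfam, with that library at 5.70 and 16.7 CPM. Levels of groups in different cohorts share no controls and were ordered as levels only.

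By the smallest root mean square difference in log2 CPM centred on each cohort's mean, over 30 libraries and 10542 genes, the genes most like Ppara were Fyco1 (0.28), Gm14403 (0.29) and Ryr2 (0.31), where the median gene was at 0.55. Fyco1 encodes an adaptor of vesicle transport and Ryr2 the calcium release channel of cardiac muscle. For Esrrb they were Fem1a (0.11), Dlat (0.11) and Ogdh (0.12), Dlat and Ogdh being subunits of the pyruvate and 2-oxoglutarate dehydrogenase complexes; the median gene was at 0.52. For Ppargc1b they were U2surp, Srek1 and Ankhd1 (0.19, 0.20 and 0.20; median 0.50), of which U2surp and Srek1 encode proteins of RNA splicing. These are descriptions across libraries that share depth and tissue make-up, and PBS_sham 3 is the extreme library for Esrrb and Ppargc1b.

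Of 28 tested genes that PPARs are known to drive, 17 were called lower and 0 higher against KO_sham, where 11.5% of all genes were called lower and 14.3% higher. Against FF_TAC 16 were called lower and 0 higher, where 6.8% of all genes were lower and 7.53% higher. Differences were positive for 5 and 3 of the 28. Their median log2 fold changes were -0.56 and -0.62, beside 0.02 and 0.04 over all genes. This list, like those below, was chosen with earlier results of these data known, so its counts are not an independent test. The step of activation by Acsl1, which ties fatty acids to coenzyme A, was at 369 ± 91.0 CPM in KO_TAC against 789 ± 132 CPM in FF_TAC (SD, n = 4) and fell by 1.07 (SE 0.16, edgeR adjusted p = 0.00113). Its exons overlap Gm45244 on the other strand, and its level is uncertain to that extent. Acaa2, a thiolase of the last step of beta-oxidation, was at 406 ± 45.7 CPM against 816 ± 97.1 CPM in KO_sham and fell by 0.997 (SE 0.126, adjusted p = 0.000547). Acot1, a cytosolic thioesterase with a close paralogue in Acot2, was at 2.002 ± 1.11 CPM against 9.41 ± 1.91 CPM and fell by 2.20 (SE 0.509, adjusted p = 0.00856), and by 2.24 against FF_TAC (SE 0.51, adjusted p = 0.01). Differences of the 28 genes against KO_sham ran from -2.20 to 1.61. With the haemoglobin term, 4 PPAR target genes were called lower against KO_sham and 12 against FF_TAC, with medians of -0.46 and -0.55. Over all 15596 genes, 138 and 517 were then called lower. With all 30 libraries in one fit, 11 were called lower in each comparison, as were 1932 and 1098 of all 16583 genes. Among haemoglobin-low hearts alone 0 were called and the median was -0.55.

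Of 22 ERR and PGC-1 target genes, 6 were called lower and 0 higher in each comparison, with a median of -0.01 against KO_sham and -0.20 against FF_TAC. Over all genes 25.8% and 14.3% were called (11.5% and 6.8% lower), so that the total called against KO_sham was near the share of all genes. Against KO_sham, Sdha, a subunit of succinate dehydrogenase, fell by 0.51 (SE 0.0925, adjusted p = 0.00279) and Cs, citrate synthase, fell by 0.49 (SE 0.0942, adjusted p = 0.00359). Against FF_TAC, Perm1, a muscle regulator induced by PGC-1 and ERR, was at 206 ± 18.4 CPM against 365 ± 61.0 CPM and fell by 0.80 (SE 0.121, adjusted p = 0.00124). Sirt3, a mitochondrial deacetylase, fell by 0.49 (SE 0.0873, adjusted p = 0.00263), and its exons overlap those of 2 genes on the other strand. The number called lower against KO_sham was 3 without KO_sham replicate 3, 1 with the haemoglobin term and 1 with all 30 libraries in one fit. Against FF_TAC it was 4 with that term, 2 with all 30 libraries, and 4 without FF_TAC replicate 1, FF_TAC replicate 4 or KO_TAC replicate 3, each in turn.

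Among 21 receptor partners and coregulators, 1 was called higher and 5 lower against KO_sham, and 0 higher and 4 lower against FF_TAC. With 25.8% and 14.3% of all genes called, the first count was near the share of all genes. Rxrg, a retinoid X receptor of muscle, was at 37.7 ± 4.80 CPM in KO_TAC against 54.8 ± 8.05 CPM in KO_sham and 61.4 ± 4.06 CPM in FF_TAC, and fell by 0.53 and 0.68 (SE 0.119 each, edgeR adjusted p = 0.0074 and 0.00252). Ncoa2, a coactivator of nuclear receptors, fell by 0.60 against KO_sham (SE 0.183, adjusted p = 0.0271), and Lpin1, which assists PGC-1alpha on PPARalpha, fell by 0.41 against FF_TAC (SE 0.104, adjusted p = 0.0166). Pprc1, the third PGC-1 relative, rose by 0.64 against KO_sham (SE 0.184, adjusted p = 0.0222); its exons overlap Ldb1 on the other strand. The number called lower was 1 without KO_sham replicate 4 or without KO_TAC replicate 3, and 0 with the haemoglobin term, against KO_sham. Against FF_TAC it was 2 without KO_TAC replicate 3.

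Of 15 nuclear respiratory factors and genes of mitochondrial genome upkeep, 2 were called higher and 2 lower against KO_sham, and 0 higher and 2 lower against FF_TAC. These counts are near the shares over all genes (14.3% higher and 11.5% lower against KO_sham, 14.3% called against FF_TAC). The 2 subunits of GABP, which drives respiratory chain genes, moved in opposite directions against KO_sham. Gabpb1 rose by 0.70 (SE 0.199, edgeR adjusted p = 0.0208), and Gabpa fell by 0.50 (SE 0.131, adjusted p = 0.015). Both overlap exons of a gene on the other strand (Gm27003 and Atp5j). Lonp1, the matrix protease, rose by 0.56 (SE 0.158, adjusted p = 0.0204), and Top1mt, the mitochondrial topoisomerase, fell by 0.52 (SE 0.139, adjusted p = 0.0155). Against FF_TAC, Polrmt, the RNA polymerase that Tfam serves, fell by 0.44 (SE 0.116, adjusted p = 0.0207), and Gabpa fell by 0.43 (SE 0.131, adjusted p = 0.0409). With the haemoglobin term none of the 15 was called in either comparison, and none was called lower against KO_sham without KO_TAC replicate 3, or against FF_TAC without FF_TAC replicate 4, KO_TAC replicate 2 or KO_TAC replicate 3, each in turn.

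The 13 mitochondrially encoded messengers are the products of the transcription that Tfam starts. Of these, 7 were called lower and 0 higher in each comparison, where 11.5% and 6.8% of all genes were called lower, with medians of -0.63 against KO_sham and -0.62 against FF_TAC, while Tfam itself was not called. mt-Nd5, a complex I subunit, was at 9306 ± 3325 CPM in KO_TAC against 16520 ± 1654 CPM in KO_sham and 16110 ± 596 CPM in FF_TAC. It fell by 0.82 and 0.77 (SE 0.189 each, edgeR adjusted p = 0.00852 and 0.0149). mt-Atp8, a subunit of the ATP synthase whose reading frame overlaps mt-Atp6, fell by 1.74 and 1.73 (SE 0.55 each, adjusted p = 0.0316 and 0.0473). The number called against KO_sham was 0 with the haemoglobin term and 4 without KO_sham replicate 1, KO_sham replicate 2, KO_TAC replicate 2 or KO_TAC replicate 3, each in turn. Against FF_TAC it was 6 with that term and 4 without KO_TAC replicate 3. The libraries were selected for poly(A) RNA, and copies of these genes lie in the nuclear genome, so these levels are uncertain.

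By edgeR with all libraries, none of these 5 lists held a called gene in any of the 8 comparisons other than KO_TAC against KO_sham and against FF_TAC. Even so, 26 of 28 PPAR target genes had negative differences in KO_sham against FF_sham (median -0.27), where Ppara itself was higher without a call. So did 23 of 28 in FF_TAC against FF_sham (median -0.18). Of 22 ERR and PGC-1 target genes, 21 and 9 were negative in these comparisons (medians -0.14 and 0.05). In PBS_TAC against PBS_sham, 24 of 28 PPAR target genes were positive (median 0.28, and -0.06 without PBS_sham 3). In AAV_sham against PBS_sham, 25 of 28 PPAR target genes and 22 of 22 ERR and PGC-1 target genes had positive differences, with medians of 0.48 and 0.48; without PBS_sham 3 the medians were 0.15 and 0.08. Without PBS_sham replicate 1 instead, 6 PPAR target genes, 2 ERR and PGC-1 target genes, 3 respiratory factor and upkeep genes and 6 mitochondrially encoded messengers were called higher there. In the same fit 2 receptor partners, 1 PPAR target gene and 1 upkeep gene were called lower. Over all genes that fit called 826 of 16209 higher and 1995 lower, while the fit of all libraries called 0 and 2. PBS_sham 3 weighs more in its group there. In AAV_TAC against AAV_sham the medians of the PPAR and the ERR and PGC-1 target genes were -0.17 and -0.06, beside 0.00 over all genes. Differences there were negative for 25 of 28 and 17 of 22 of them.

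**Figure D5:**
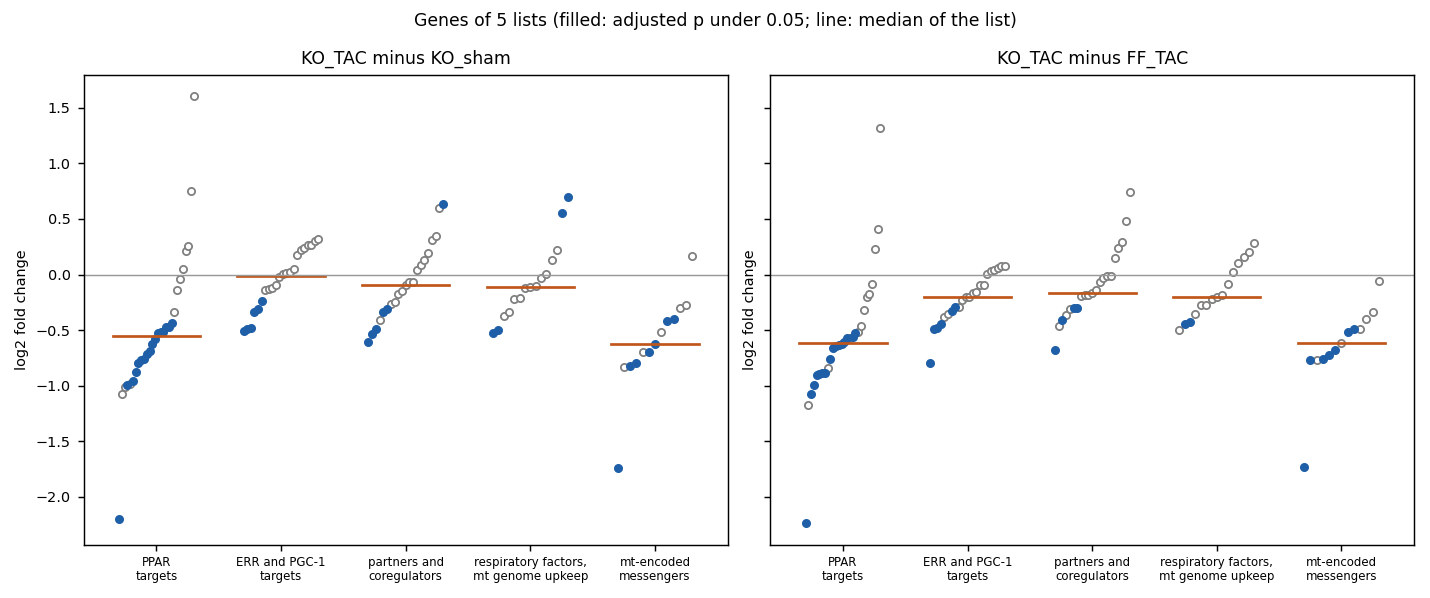
Log2 fold changes (vertical axes) of the genes of 5 lists in KO_TAC against KO_sham (left) and FF_TAC (right), each point a gene, filled at an adjusted p under 0.05, with the median of each list as a line. Of 28 PPAR target genes, 17 are filled below 0 on the left and 16 on the right, with medians of -0.56 and -0.62.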

How the data were processed

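Poly(A) RNA of 30 mouse hearts was counted per gene. The authors deposited raw counts, read as such because values are whole and totals differ (14839758 to 22070373 per library); HISAT2 2.1.0, featureCounts of Subread 1.5.1 and build GRCm38 come from the submitters' processing notes. The strand setting and annotation release are not given in the sources used here. Titles of KO_TAC samples mention TAC as well as sham; the genotype and treatment labels were used. Symbols came from GENCODE mouse release 21 for 55227 of 55487 identifiers; the others held 0.00336% of the counts. Counts of replicates differed beyond sampling noise (42 pairs, chi-square divided by its degrees of freedom 6.8 to 262), so none were duplicates. The microRNA work was not analysed here.

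Each cohort was fitted in edgeR 4.0.16 (R 4.3.3) with 1 mean per group, TMM and filterByExpr, testing 15596 genes (floxed) and 15745 (AAV9), with Benjamini-Hochberg adjustment over all genes and a threshold of 0.05; the code was tested on simulated data. There were 10 comparisons, 5 per cohort: 4 between groups and their interaction. From each list and comparison, the 2 largest rises and falls among called genes with at least 5 CPM in the higher group were named. Likeness used log2(CPM + 0.5) and the 3 members with the largest SD. Alternatives were DESeq2 1.42.0, limma 3.58.1 voom with sample quality weights, RLE factors, no filter, a block on replicate number, all 30 libraries in one fit, CPM on library totals alone and each library left out; a haemoglobin term (under 100 CPM or not), haemoglobin-high or haemoglobin-low libraries alone and an atrial covariate (log2 Myl7 CPM) were added after seeing the data. Members and lists were chosen with earlier results of these data known.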

Additional observations from a re-analysis of the deposited data

Results flagged for a closer look

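In 4 of 60 combinations of a member and a group of 4 hearts, 1 heart lay far from the other 3 relative to the range of the group; chance gives this in about 1 in 20. Ppard was at 32.71 CPM in KO_sham replicate 2 and at 27.47 to 27.81 CPM in the other 3, and Esrrb was at 32.34 CPM in the same library and at 27.12 to 27.75 CPM in the others. That library is the haemoglobin-low one of its group, with Cpt1a at 46.8 CPM. Esrrg was at 32.06 CPM in FF_sham replicate 2, the library with the highest adipocyte markers of its cohort, and at 40.49 to 42.0 CPM in the others. Esrrg was at 44.79 CPM in AAV_TAC replicate 1 and at 38.41 to 39.38 CPM in the others.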

How the results depend on the processing

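Across the alternatives, 2246 fold changes of members kept their direction, where called, and their side of the threshold, 26 passed it newly, 8 no longer passed it, and none reversed while called. Ppara, Rxra and Esrrg were called in 16 of 16 fits with 1 library left out in KO_TAC against KO_sham, as were those and Esrrb against FF_TAC, where Esrrb without 1 library reached an adjusted p of up to 0.0499. The number of members called against KO_sham was 5 with voom and 1 with the haemoglobin term, and 3 to 5 with 1 library left out (without KO_TAC replicate 1, Ppargc1a and Ppargc1b passed). Against FF_TAC it was 0 in haemoglobin-low libraries alone. For the interaction of knockout and TAC it was 1 with DESeq2, 1 with no filter, 1 with the atrial covariate, 1 with all 30 libraries and 2 with voom (Ppara in each, Esrrg also in voom), and 0 to 1 with 1 library left out (1 without FF_TAC replicate 3, KO_TAC replicate 1 or KO_TAC replicate 4). DESeq2 and voom then called 377 and 2930 genes in all, against 7 in edgeR; against KO_sham voom called 8336 genes, edgeR 4031. In AAV_TAC against AAV_sham DESeq2 and voom called 117 and 367, edgeR 1. There the number of members was 1 with DESeq2 and 1 with voom (Ppara), and 0 to 1 with 1 library left out (without PBS_sham replicate 3). Leaving out PBS_sham replicate 1 gave 2 in PBS_TAC against PBS_sham (Ppargc1b and Tfam; range 0 to 2) and 3 in AAV_sham against PBS_sham (Ppara, Esrrg and Tfam; range 0 to 3); PBS_sham replicate 3 then weighs more. That fit called 1796 and 2821 of 16209 genes in these comparisons, against 5 and 2 with all libraries. The cause of the other changes was not tested. With the replicate block, 4 members were called against KO_sham (Ppargc1a at -0.49, adjusted p = 0.0489, in addition) and 4 against FF_TAC; the pairing of replicate numbers is not backed by the data, since 9 of 24 floxed pairs and 7 of 19 AAV9 pairs correlated above 0.1. Levels on library totals alone stayed within 1 SD in 77 of 80 cases. Total counts per library limit Ppara most, with 60 to 112 counts in the KO_TAC libraries.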
